A study of Homo sapiens with 26 samples.

Results

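ATP synthase, complex V of the respiratory chain, was followed through the genes of its F1 head (ATP5F1A, ATP5F1B and ATP5F1C), its peripheral stalk (ATP5PO and ATP5PB) and its membrane part (ATP5MC1, ATP5MC2, ATP5MC3 and ATP5MG), together with the assembly factor gene FMC1. These 10 genes, chosen by name and matched by Ensembl identifier, are 10 of the 60663 genes counted by RNA-seq. The cells were HEK293T, derived from human embryonic kidney, with an Avi tag on the endogenous ribosomal protein RPL29. As polyclonal sorted lines they expressed the light-activated biotin ligase LOV-BirA at the ER (fused to Sec61β, under the SFFV promoter), at the outer mitochondrial membrane (OMM, fused to the OMP25 TMD, under EF1α) or free in the cytosol (under EF1α). Under cycloheximide (CHX), which stalls elongating ribosomes, 2 lysates per location gave ribosome profiling libraries of the total input and of the streptavidin pulldown. The OMM ligase was also combined with RNA-seq of intact transcripts bound to labelled ribosomes, in wild-type cells carrying a negative control gRNA, in AKAP1 null cells and in LARP4 null cells (2 lysates each), and in cells without CHX (1 lysate, labelled for a shorter time, whose genotype the labels do not give). Each null genotype is 1 monoclonal line, so genotype and clone cannot be told apart, and CHX treatment of the null lines is taken from the general protocol. The labels call the lysates replicates and nothing more, while the study calls those of OMM ribosome profiling biological. For the other groups the spread between lysates may be technical. The p-values rest on a spread between lysates that the fit estimates over all groups of an assay together. In bulk lysates the share of cells that respond and the size of the response per cell cannot be told apart.

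ATP synthase makes ATP from the proton gradient across the inner mitochondrial membrane. The α and β subunits form the catalytic head, the γ subunit turns inside it, a ring of c subunits turns in the membrane, and the peripheral stalk, which includes OSCP and b, holds the head still. Apart from MT-ATP6 and MT-ATP8, which the mitochondrial genome encodes, the subunits are made on cytosolic ribosomes and imported, in many cases with a presequence that is removed after import. AKAP1 is an OMM-anchored protein that binds kinases and RNA, and LARP4 binds poly(A) RNA.

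Subunit c is a particular case, because ATP5MC1, ATP5MC2 and ATP5MC3 encode the same mature protein behind different presequences. In the canonical transcripts of GENCODE on GRCh38, the 3 predicted proteins have 136, 141 and 142 residues and share their last 77 residues exactly, a stretch that includes the mature protein. The first 59, 64 and 65 residues of ATP5MC1, ATP5MC2 and ATP5MC3 differ. The coding bases of these differing parts are printed in lower case, from the start codon, and the first 36 bases of the shared stretch in capitals. The 3 genes also differ in untranslated regions, introns and bases of the shared stretch. Which of these differences goes with a difference in enrichment was not tested. Each gene has 4 coding exons, and each sequence is spliced and written 5′ to 3′ on the coding strand.
ATP5MC1: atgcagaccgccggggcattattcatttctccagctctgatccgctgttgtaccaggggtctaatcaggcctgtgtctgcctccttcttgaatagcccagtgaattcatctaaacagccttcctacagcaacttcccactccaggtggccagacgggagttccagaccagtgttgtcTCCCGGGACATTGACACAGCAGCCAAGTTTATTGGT
ATP5MC2: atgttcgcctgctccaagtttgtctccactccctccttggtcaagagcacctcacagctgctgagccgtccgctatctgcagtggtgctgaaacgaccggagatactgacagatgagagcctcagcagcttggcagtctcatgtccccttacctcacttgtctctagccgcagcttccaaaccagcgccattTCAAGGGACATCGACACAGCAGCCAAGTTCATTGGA
ATP5MC3: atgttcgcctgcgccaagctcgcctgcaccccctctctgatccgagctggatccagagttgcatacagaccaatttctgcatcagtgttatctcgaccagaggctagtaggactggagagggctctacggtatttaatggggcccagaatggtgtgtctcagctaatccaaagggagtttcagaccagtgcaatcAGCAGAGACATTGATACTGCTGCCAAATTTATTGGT

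With the introns between them, the printed bases span chr17:48893418-48895251 (ATP5MC1, plus strand), chr12:53669231-53672614 (ATP5MC2, minus strand) and chr2:175179140-175181393 (ATP5MC3, minus strand). Over the 231 bases that encode the shared 77 residues, ATP5MC1 and ATP5MC2 are identical at 204 bases (88.3%), and ATP5MC3 is identical to either of them at 185 bases (80.1%). Of the 27 bases that differ between ATP5MC1 and ATP5MC2, 24 are at the third codon position. The differing N-terminal parts are less alike, with a longest common subsequence of 26 residues between ATP5MC1 and ATP5MC2, 29 between ATP5MC1 and ATP5MC3 and 33 between ATP5MC2 and ATP5MC3.

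The deposited footprint counts mask positions that occur more than once in the genome, so the 3 genes were not counted over the same share of their sequence. Counted coding positions numbered 151 for ATP5MC1, 36 for ATP5MC2 and 335 for ATP5MC3, where the canonical transcripts have 408, 423 and 426 coding bases. Named pseudogene copies in the annotation number 8 each for ATP5MC1, ATP5PB and ATP5MG and 5 for ATP5MC2, and how RNA-seq reads shared with them were counted is not given in the sources used here. For ATP5F1A, which has 7 such copies, only 92 coding positions were counted and at most 2.50 counts fell on them, so ATP5F1A was read over all exons instead. The footprint entries with ATP5PO and ATP5MG merge them with other genes, mainly DONSON and KMT2A, and these entries were not among the genes tested. Hence 7 of the 10 genes were tested in ribosome profiling and all 10 in RNA-seq.

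Depth ran from 1025114 estimated counts in coding sequences (OMM pulldown, lysate 1) to 19539527 in ribosome profiling, and from 38347615 to 100840544 counts in RNA-seq. The line markers VIM, KRT8, KRT18, LIN28B, PAX2 and NEFM were detected in every total input, whereas PTPRC, ALB, HBB and MYH7 had at most 8 counts. As a check of the labels, the targeted genes were read first. AKAP1 had 21.4 and 22.4 RPKM (counts scaled by gene length and library total) in wild-type total inputs against 6.02 and 3.81 in AKAP1 null cells (log2 difference -2.15 ± 0.22 (SE), adjusted p = 0.24), so its transcript was lower in both null lysates but not absent, and the difference did not pass the test. LARP4 had 27.7 and 28.5 against 9.78 and 9.12 in LARP4 null cells (-1.56 ± 0.12, adjusted p = 0.040). Library totals set the scale of every enrichment, and edgeR's TMM scaling, which assumes that most genes do not change, shifted the median log2 enrichment of all genes by 0.65 at the ER, 0.32 at the OMM, 0.30 in wild-type RNA-seq and 0.12 in AKAP1 null RNA-seq. It shifted AKAP1 null minus wild type by -0.17 and LARP4 null minus wild type by -0.21.

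**Figure D1:**
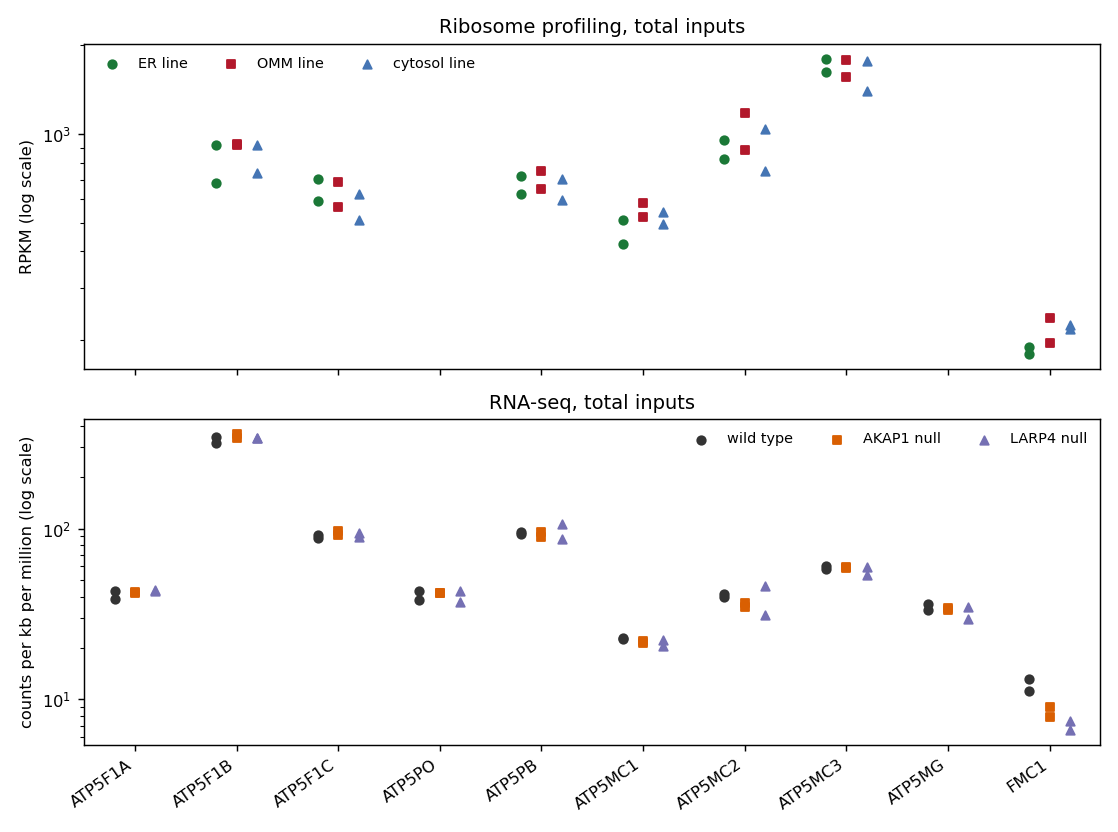
Levels of the ATP synthase genes and FMC1 in total inputs on log axes, as RPKM over counted coding positions in ribosome profiling (upper panel, 7 genes) and as RPKM computed from counts and gene length in RNA-seq (lower panel, 10 genes). Each point is 1 library, and ATP5F1B is the highest in RNA-seq while FMC1 is the lowest in both panels.

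Before any pulldown, the genes differed widely in level per length. In RNA-seq total inputs with CHX (6 libraries), levels are given as RPKM computed from the counts, the gene length and the library total. ATP5F1B, the catalytic β subunit gene, was the highest, with 316 to 356 RPKM and a median of 339. ATP5PB (median 94.1, range 87.2 to 106) and ATP5F1C (median 91.2, range 87.6 to 96.7) followed, and their ranges overlapped. ATP5MC3 (53.6 to 60.8) lay above ATP5F1A (38.7 to 43.7), ATP5PO (37.4 to 43.3), ATP5MC2 (31.3 to 45.8) and ATP5MG (29.7 to 36.1), which overlapped in that order. ATP5MC1 (20.4 to 22.9) and FMC1 (6.65 to 13.1) were the lowest, and neither overlapped another gene. This order depends on the deposited gene length, which was 10910 bases for ATP5F1A, 2238 for ATP5F1B and 3883 for ATP5MC3. By median count in the same libraries, ATP5F1A (20930) lay above ATP5MC3 (10930) and below ATP5F1B (34380).

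The c subunit genes kept 1 order in both assays. In ribosome profiling total inputs ATP5MC3 had 1398 to 1801 RPKM over its counted coding positions, ATP5MC2 748 to 1176 and ATP5MC1 422 to 584, with no overlap between the ranges. As a share of the summed level per length of the 3 genes, ATP5MC3 took 47.0 to 57.5%, ATP5MC2 26.2 to 35.4% and ATP5MC1 14.1 to 20.3% of footprints. In RNA-seq the shares were 46.5 to 51.0%, 29.7 to 36% and 17.5 to 19.4%. ATP5MC1, the lowest of the 3 in lysates, had the highest fitted enrichment of the 3 at the OMM in both assays, as described next. In ribosome profiling over coding positions, its excess over ATP5MC2 was not called (0.22, 95% interval -0.16 to 0.59).

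**Figure D2:**
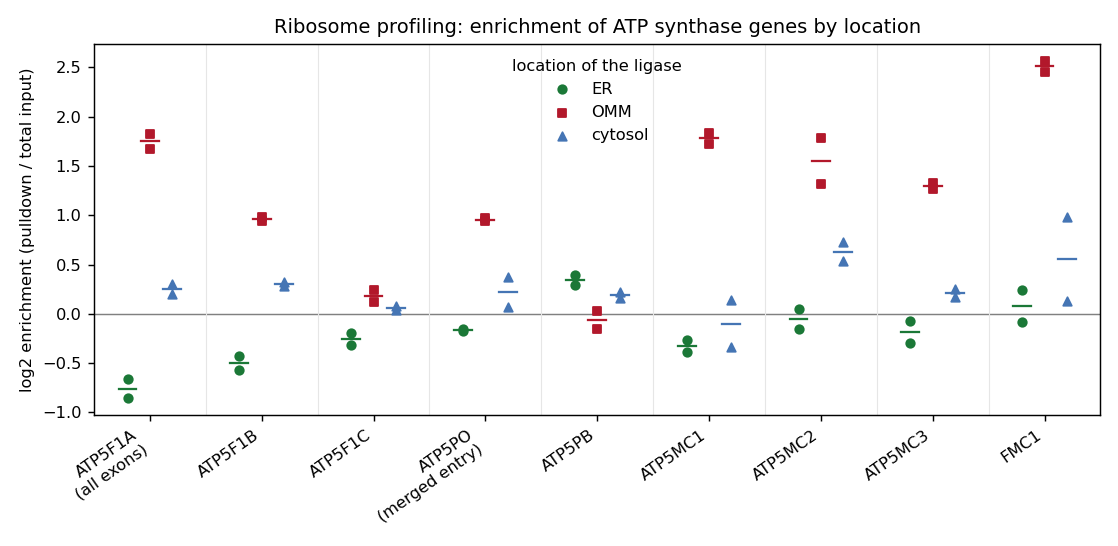
Pulldown over total input as a log2 ratio of RPKM for 9 genes in ribosome profiling with the ligase at the ER, at the OMM or in the cytosol. Points are the 2 lysates per location and bars their mean. ATP5F1A is read over all exons and ATP5PO through an entry merged with DONSON. FMC1 is highest at the OMM (2.57 and 2.46), and ATP5PB and ATP5F1C lie near 0 there.

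At the OMM, footprints of the c subunit genes, of ATP5F1B and of FMC1 were enriched, whereas those of ATP5PB were not. Of the 7 genes tested, 6 were called higher in the pulldown (edgeR quasi-likelihood test, adjusted p below 0.05) and 0 lower, where 17.0% of all 6728 genes were called higher and 46.0% lower. Of all called genes 27% were higher, and 51.4% under TMM. The median of the 7 was 1.31 on the log2 scale, against -0.38 over all genes and 0.32 over 689 nuclear-encoded mitochondrial genes that the study lists.

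FMC1, the assembly factor gene, showed the largest enrichment. Its level was 195 and 237 RPKM in the total inputs and 1157 and 1298 RPKM in the matched pulldowns. The pulldowns were higher in both lysates, and the fit gave 2.53 ± 0.17 (SE, adjusted p = 1.8e-09), a 5.76-fold difference. FMC1 lies at chr7:139339457-139346328 (plus strand), and these levels rest on 83 counted positions, where its canonical transcript has 339 coding bases, and on 177 to 596 counts per library.

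Among the head genes, ATP5F1B rose from 916 and 927 RPKM to 1763 and 1829 RPKM, which gave log2 ratios of 0.94 and 0.98 and a fitted value of 0.98 ± 0.08 (adjusted p = 1.4e-08). ATP5F1A, the α subunit gene, had 98.3 and 115 RPKM over all exons in total inputs and 349 and 367 RPKM in pulldowns. Over exons it was enriched by 1.77 ± 0.08 (adjusted p = 8.4e-12, with 16.5% of genes called higher in that fit), more than ATP5F1B in either lysate. ATP5F1C, the γ subunit gene, changed little, from 565 and 689 RPKM to 616 and 816 RPKM. Its fitted value of 0.21 ± 0.09 passed the threshold narrowly (adjusted p = 0.049) and did not with DESeq2 (adjusted p = 0.056) or without either OMM lysate.

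The stalk genes parted from each other. ATP5PB, the b subunit gene, had 652 and 752 RPKM in total inputs and 667 and 677 RPKM in pulldowns, with ratios of 0.03 and -0.15 that lay on either side of 0. Its fitted value was -0.04 ± 0.10 (adjusted p = 0.72), which became 0.27 (adjusted p = 0.029) under TMM. The entry that holds ATP5PO, the gene for OSCP, rose from 585 and 570 RPKM to 1122 and 1116 RPKM. When entries of several genes were kept in the test, a setting chosen after the data had been seen, it was enriched by 0.97 ± 0.09 (adjusted p = 1.3e-07, with 17.7% called higher). In wild-type RNA-seq, DONSON itself was at -0.07 ± 0.09 (adjusted p = 0.52). The entry that holds ATP5MG spans 11026 coding positions, mostly those of KMT2A, and was not read as ATP5MG.

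The 3 c subunit genes were all enriched at the OMM. ATP5MC1 had 584 and 522 RPKM in total inputs and 1933 and 1857 RPKM in pulldowns, a fitted enrichment of 1.80 ± 0.11 (adjusted p = 5.2e-10). ATP5MC2 rose from 1176 and 885 RPKM to 2929 and 3045 RPKM (1.58 ± 0.14, adjusted p = 3.7e-08). ATP5MC3 rose from 1561 and 1789 RPKM to 3908 and 4300 RPKM (1.31 ± 0.08, adjusted p = 7.0e-10). In all 3 genes the pulldown and total input ranges did not overlap. The ATP5MC2 value rests on 36 counted coding positions. Over all exons the fitted values were 1.76 ± 0.10 for ATP5MC1, 1.17 ± 0.08 for ATP5MC2 and 1.27 ± 0.08 for ATP5MC3.

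With the ligase free in the cytosol, pulldown and total input of these genes differed less. edgeR called none of the 7 higher and none lower, where 2.02% of 7162 genes were called higher and 5.96% lower. Without adjustment, 1 was higher and 1 lower at p below 0.05, and DESeq2 called 0. Without cytosol lysate 1, FMC1 was called higher (0.75) and ATP5MC1 lower (-0.57). The lysates disagreed for FMC1, with RPKM ratios of 0.13 and 0.98, and for ATP5MC1, with 0.14 and -0.34. RPKM ratios and fitted values are on different scales, since RPKM divides by all reads on transcripts and the fit by reads in coding sequences. The fit differs from the ratio by -0.24 and -0.23 in the cytosol lysates and by -0.37 and -0.20 in the ER lysates, but by 0.03 and 0.01 at the OMM.

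The direct contrast of OMM with cytosol called 6 of the 7 genes higher and 0 lower, against 16.6% and 39.7% of 6465 genes. Of all called genes 29.4% were higher, and 54.1% under TMM. FMC1 (2.23 ± 0.23, adjusted p = 8.0e-07) and ATP5MC1 (2.13 ± 0.16, adjusted p = 9.6e-09) differed most between the locations. ATP5MC3 (1.33 ± 0.12), ATP5MC2 (1.20 ± 0.19), ATP5F1B (0.91 ± 0.11) and ATP5F1C (0.38 ± 0.12, adjusted p = 0.013) followed. ATP5PB, at 0.00 ± 0.14, did not differ detectably. Without the term for the lysate, 3 of the 7 were called higher, where 199 of 6465 genes were called higher and 55 lower. Without either OMM lysate the call of ATP5F1C was lost.

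At the ER the direction depended on the scale. Relative to library totals 5 of the 7 were called lower and 0 higher, with a median of -0.47, but 72.0% of 7381 genes were called lower there and 19.8% higher, and the median of all genes was -0.68. Of all called genes 21.6% were higher, and 53.5% under TMM. Under TMM 0 of the 7 were called lower and 2 higher, ATP5PB (0.71) and FMC1 (0.45), where 25.4% of all genes were called lower and 29.2% higher, so that 2 of 7 is near the background. ATP5F1B was the lowest, from 682 and 917 RPKM in total inputs to 507 and 617 RPKM in pulldowns (-0.78 ± 0.08, adjusted p = 4.3e-08). ATP5PB was the highest, from 624 and 723 RPKM to 766 and 948 RPKM, and its fitted value of 0.06 ± 0.09 was not called (adjusted p = 0.54). The signs of ATP5F1C, ATP5MC1, ATP5MC2, ATP5MC3 and FMC1 turned under TMM, and ATP5F1B was at -0.14 and not called.

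**Figure D3:**
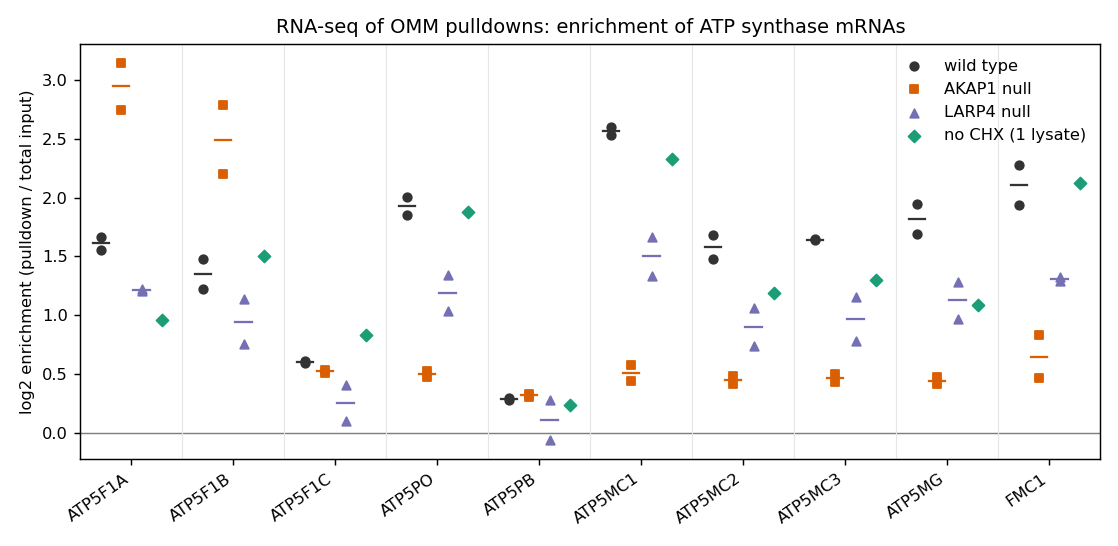
Pulldown over total input as a log2 ratio of CPM (0.5 counts added) for 10 genes in RNA-seq with the ligase at the OMM. Points are lysates, bars the mean of 2 lysates. ATP5F1A and ATP5F1B are highest in AKAP1 null cells, and the 6 genes ATP5PO, ATP5MC1, ATP5MC2, ATP5MC3, ATP5MG and FMC1 are lowest there.

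RNA-seq of intact transcripts asked whether the mRNAs themselves come down with OMM-labelled ribosomes, and whether this depends on AKAP1 or LARP4. In wild-type cells all 10 mRNAs were enriched (10 called higher, 0 lower), where 20.2% of 13856 genes were called higher and 45.6% lower. Their median was 1.63, against -0.28 over all genes and 0.44 over 1020 listed mitochondrial genes. Under TMM the share of higher calls among all called genes went from 30.7% to 52.8%.

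ATP5MC1 mRNA was the most enriched of the 10 in wild-type cells, from 22.7 and 22.9 RPKM in total inputs to 131 and 139 in pulldowns. The fit gave 2.57 ± 0.11 (adjusted p = 5.7e-06), a 5.92-fold difference. FMC1 was next, from 13.1 and 11.2 to 50.4 and 54.5 RPKM (2.11 ± 0.13). ATP5PO (1.93 ± 0.10), ATP5MG (1.82 ± 0.11), ATP5MC3 (1.64 ± 0.11), ATP5F1A (1.61 ± 0.11), ATP5MC2 (1.58 ± 0.11) and ATP5F1B (1.35 ± 0.16) formed a middle group, and the order within it was not tested outside the c subunit genes. ATP5F1C (0.60 ± 0.10) and ATP5PB (0.29 ± 0.10, adjusted p = 0.031) were the least enriched, as in ribosome profiling, and the call of ATP5PB was lost without either wild-type lysate.

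Without CHX the order at both ends was the same. In that 1 lysate, with no test, ATP5MC1 (2.33), FMC1 (2.12) and ATP5PO (1.88) had the highest log2 ratios and ATP5F1C (0.84) and ATP5PB (0.24) the lowest. ATP5F1B (1.50) lay above both wild-type lysates with CHX (1.22 and 1.48), and ATP5F1A (0.96) below both (1.56 and 1.67). ATP5MG (1.09), ATP5MC2 (1.19) and ATP5MC3 (1.30) were also below the CHX lysates. CHX and induction time differed together, so their effects on these values cannot be told apart.

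In AKAP1 null cells the ATP synthase mRNAs split into 3 groups. ATP5F1A and ATP5F1B, which encode the largest subunits, were more enriched than in wild type. ATP5PO, ATP5MG, FMC1 and the 3 c subunit genes were less enriched, and ATP5F1C and ATP5PB did not differ detectably. For the difference between AKAP1 null and wild-type enrichment, 2 of the 10 genes were called higher and 6 lower, where 6.52% of 13856 genes were called higher and 7.96% lower. The median over the 10 was -1.15, against 0.19 over all genes and 0.08 over the listed mitochondrial genes. Among all called genes, 45.0% were higher, and 16.7% under TMM, with the directions of the 8 called ATP synthase genes kept.

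ATP5F1A had 43.3 and 38.7 RPKM in wild-type total inputs and 127 and 123 in the pulldowns. In AKAP1 null cells it had 41.7 and 42.5 in total inputs and 280 and 376 in pulldowns, so that the null pulldowns lay far above the wild-type ones while the total inputs overlapped. The difference in enrichment was 1.33 ± 0.15 (adjusted p = 0.0010). ATP5F1B went from 343 and 316 (total) and 799 and 881 (pulldown) in wild type to 356 and 338 (total) and 1636 and 2335 (pulldown) in AKAP1 null cells. Its difference was 1.14 ± 0.22 (adjusted p = 0.011). This call was lost without either wild-type lysate or without AKAP1 null lysate 2, where the values were 1.02, 1.27 and 0.85, although the sign stayed. The pulldown level was higher in AKAP1 null lysate 2 than in lysate 1 for both genes.

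ATP5MC1 moved the most of the 10. Its wild-type pulldowns had 131 and 139 RPKM and its AKAP1 null pulldowns 31.8 and 29.9, over total inputs of 22.7 and 22.9 against 21.3 and 22.1. The difference in enrichment was -2.06 ± 0.15 (adjusted p = 0.00026), a 4.16-fold lower ratio. ATP5MC2 went from 115 and 128 to 51.5 and 46.4 in pulldowns (-1.13 ± 0.15, adjusted p = 0.0019), and ATP5MC3 from 180 and 191 to 83.8 and 79.6 (-1.18 ± 0.15, adjusted p = 0.0015). The wild-type and null pulldowns did not overlap in any of the 3.

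ATP5PO, the OSCP gene, fell in the same way, from 155 and 154 to 60.7 and 58.2 RPKM in pulldowns (-1.43 ± 0.14, adjusted p = 0.00060). ATP5MG, whose product helps join ATP synthase into dimers, went from 116 and 128 to 47.4 and 44.8 (-1.37 ± 0.15, adjusted p = 0.00085). FMC1 went from 50.4 and 54.5 to 14.2 and 12.5 (-1.46 ± 0.18, adjusted p = 0.0013). The FMC1 level was also lower in the null total inputs (7.93 and 9.04 against 13.1 and 11.2), a difference of -0.51 ± 0.17 that was not called (adjusted p = 0.97). FMC1 shares exons with the read-through gene FMC1-LUC7L2 on the same strand, so its counts are uncertain. By contrast ATP5F1C (-0.08 ± 0.14, adjusted p = 0.70) and ATP5PB (0.03 ± 0.14, adjusted p = 0.89) kept nearly the same enrichment. Per lysate ATP5F1C had log2 ratios of 0.60 and 0.61 in wild type and 0.51 and 0.54 in AKAP1 null cells, and ATP5PB 0.30 and 0.28 against 0.33 and 0.31.

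All 10 remained above the library average in AKAP1 null cells (10 called higher, 0 lower, where 13.9% of genes were called higher and 28.1% lower). For the 6 that fell and for ATP5F1C and ATP5PB this residue was small, from 0.32 ± 0.10 (ATP5PB) to 0.65 ± 0.13 (FMC1). Among all called genes 33.2% were higher, and 49.2% under TMM. The calls of ATP5F1A and ATP5F1B held without either AKAP1 null lysate, and that of FMC1 without lysate 2 but not without lysate 1 (0.47). The other calls needed both lysates, with lone-lysate values from 0.31 (ATP5PB) to 0.58 (ATP5MC1). Fewer of all genes were called higher in these fits as well. Over both lysates ATP5F1A was at 2.94 ± 0.12 and ATP5F1B at 2.49 ± 0.16.

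**Figure D4:**
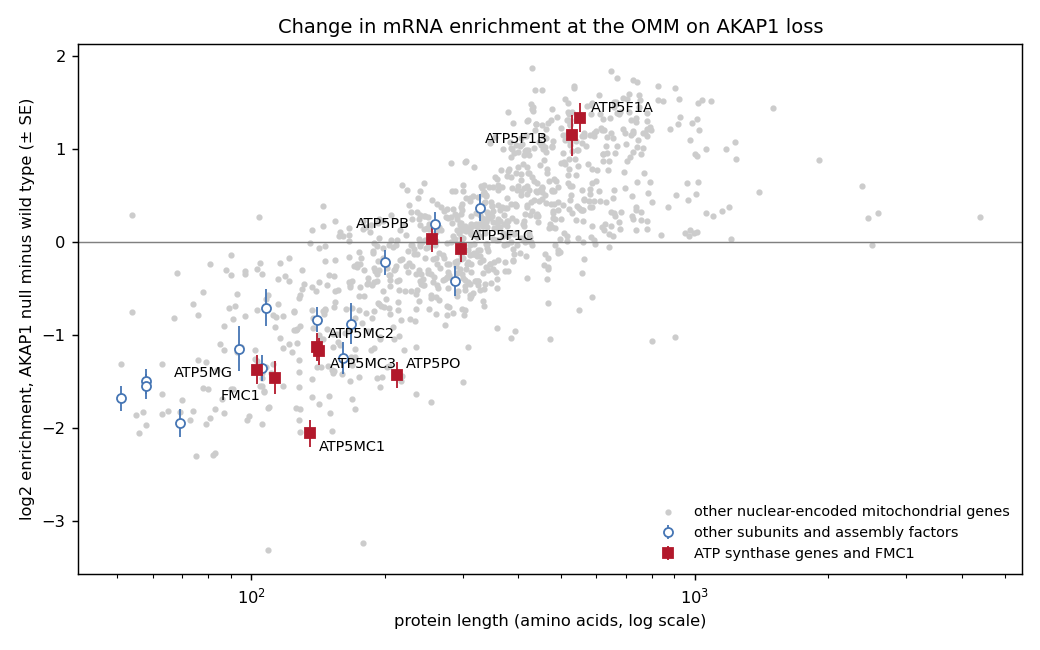
Difference in log2 enrichment at the OMM, AKAP1 null minus wild type, against the length of the encoded protein on a log axis. Squares are the 9 ATP synthase genes and FMC1, open circles 14 other nuclear genes of the complex, both with SE from the fit, and grey points other nuclear-encoded mitochondrial genes listed by the study. ATP5F1A and ATP5F1B sit at the upper right and ATP5MC1 lowest among the named genes.

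Ordered by the length of the encoded protein, the difference between genotypes ran from negative to positive. Over the 10 genes and 14 further nuclear genes of the complex (other subunits, the inhibitor and assembly factors), Spearman's rho between protein length and the AKAP1 null minus wild-type difference was 0.83 (n = 24 genes from the same libraries). It was 0.79 over 1019 listed mitochondrial genes and 0.50 over 12098 genes with a coding length. In classes of length set after the values had been seen, all 13 genes of the complex with proteins of up to 150 residues were called lower, against 76.6% of 154 listed mitochondrial genes of that length. Of the 8 with 151 to 300 residues 3 were called lower, against 29.3% of 297 listed mitochondrial genes, a similar share. The 2 above 500 residues, ATP5F1A and ATP5F1B, were called higher, as were 63.5% of 233 listed genes of that length. Length did not order every pair, since ATP5PO (213 residues) was at -1.43 and ATP5MC2 (141 residues) at -1.13.

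Most of the other genes of the complex were enriched at the OMM and lost enrichment without AKAP1. At the OMM 10 of the 12 tested in ribosome profiling were called higher and 0 lower, against 17.0% and 46.0% of all genes and 47.2% and 10.3% of listed mitochondrial genes. The largest values were those of ATP5MK (1.77 ± 0.16), ATP5ME (1.76 ± 0.10) and ATP5MJ (1.70 ± 0.12), small proteins of the membrane part. The ATP5MK value rests on 57 counted coding positions. Over all exons ATP5MK was at 1.15, below ATP5ME (1.72) and ATP5MJ (1.63). On AKAP1 loss 10 of the 14 were called lower in RNA-seq and 0 higher, with a median of -1.01, against 7.96% lower and 6.52% higher over all genes and 22.1% and 24.3% over listed mitochondrial genes. ATP5ME (-1.94 ± 0.15), ATP5F1E (-1.68 ± 0.13), the ε subunit gene of the central stalk, and ATP5MK (-1.55 ± 0.13) fell most, and ATP5MJ fell by 1.50. ATPAF1 and ATPAF2, chaperones for β and α, were at 0.37 ± 0.15 and -0.42 ± 0.16 and were not called. The mitochondrial MT-ATP6 and MT-ATP8 were not measured in RNA-seq (0 counts in every library), and in ribosome profiling had at most 156 counts in a total input.

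In LARP4 null cells all 10 genes had lower fitted values than in wild type, and none of the differences was called. Enrichment was called for 8 of the 10 genes (0 lower, where 22.8% of genes were called higher and 30.0% lower), with ATP5MC1 again the highest (1.50 ± 0.10) and ATP5F1C (0.26 ± 0.10, adjusted p = 0.052) and ATP5PB (0.11 ± 0.10, adjusted p = 0.36) not called. All 10 fitted differences from wild type were negative, from -1.07 ± 0.14 (ATP5MC1) to -0.18 ± 0.14 (ATP5PB). Their median was -0.68, against 0.17 over all genes and -0.12 over the listed mitochondrial genes. With edgeR none of them was called, nor was any of the 13856 genes (0.0% higher and 0.0% lower). Without adjustment, p was below 0.05 for 8 of the 10, all lower, and for 666 lower and 1604 higher among all genes.

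This result depends on the test and on the lysate. DESeq2 called 6 of the 10 lower (ATP5PO, ATP5MC1, ATP5MC2, ATP5MC3, ATP5MG and FMC1), where it called 1.46% of all genes lower and 0.0577% higher. Of the 1020 listed mitochondrial genes DESeq2 called 86 lower and 0 higher. Without LARP4 null lysate 1, edgeR called 9 lower (all but ATP5F1B), with 8.24% of all genes lower and 32.6% higher. Without lysate 2 it called 3 (ATP5PO, ATP5MC1 and FMC1), with 0.671% of all genes lower and 0.0217% higher. The 2 LARP4 null lysates differed from each other, lysate 2 being lower for 9 of the 10 genes and higher for ATP5F1B (1.14 against 0.75). ATP5MC1 had 70.6 and 51.7 RPKM in the LARP4 null pulldowns, below both wild-type pulldowns and above both AKAP1 null pulldowns. The AKAP1 and LARP4 comparisons share the wild-type libraries. A direct contrast of the null lines was not run.

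In total inputs none of the 10 mRNAs was called different between genotypes. The same test did not call the 4.44-fold lower AKAP1 level of the AKAP1 null line either, so the lack of a call there does not show that levels were alike. edgeR called none against wild type in either null line, where 0.0% of 13977 genes were called in AKAP1 null cells, and 0.00715% higher and 0.00715% lower in LARP4 null cells. Without adjustment, only FMC1 was below 0.05 in each line, lower in both. FMC1 had 13.1 and 11.2 RPKM in wild type, 7.93 and 9.04 in AKAP1 null and 6.65 and 7.44 in LARP4 null total inputs, with no overlap between the wild-type and null libraries. Its difference in LARP4 null cells was -0.77 ± 0.17 (adjusted p = 0.99). The other 9 differed from wild type by between -0.18 (ATP5MC2) and 0.08 (ATP5F1B and ATP5F1C) on the log2 scale in AKAP1 null cells.

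**Figure D5:**
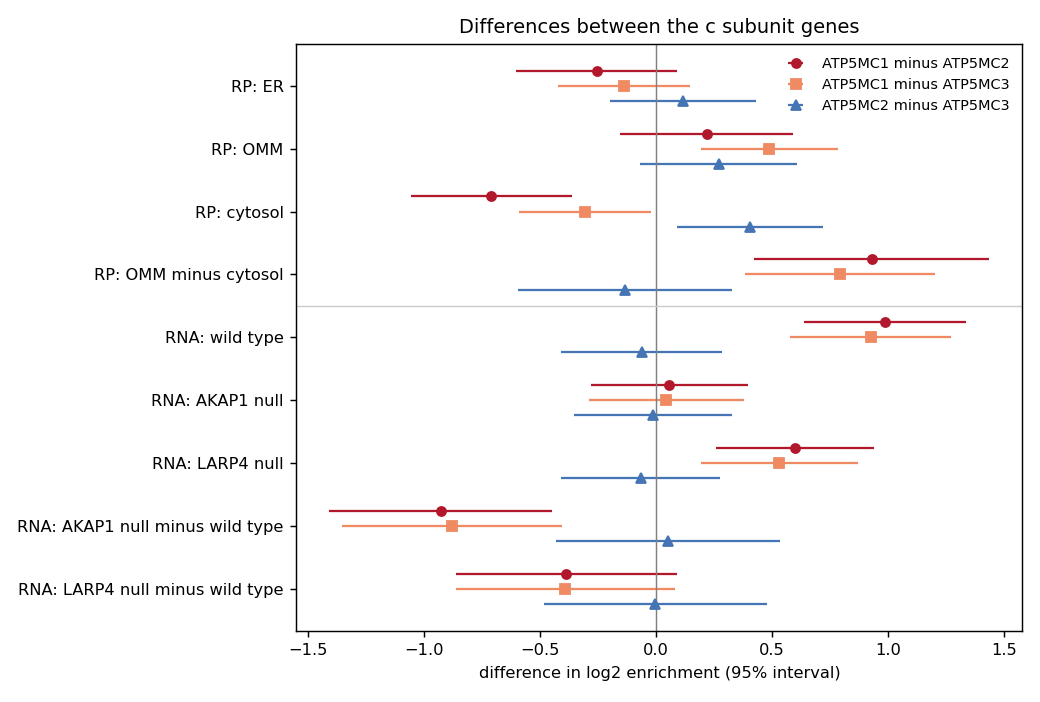
Differences in fitted log2 enrichment between pairs of c subunit genes with 95% intervals, for 4 comparisons in ribosome profiling (RP) and 5 in RNA-seq. ATP5MC1 differs from both other genes in wild-type RNA-seq (0.99 and 0.92), whereas the ATP5MC2 minus ATP5MC3 intervals include 0 in every RNA-seq comparison.

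The c subunit genes, which share the mature product but not the presequence, untranslated regions or introns, were compared pairwise. There were 12 pairs in ribosome profiling and 15 in RNA-seq, with p-values adjusted within each assay. Intervals and p-values are approximate, since both genes of a pair were measured in the same libraries. In RNA-seq 6 of the 15 pairs differed and in ribosome profiling 5 of the 12. In wild-type cells ATP5MC1 mRNA was more enriched than ATP5MC2 by 0.99 (95% interval 0.64 to 1.34, adjusted p = 0.0018) and than ATP5MC3 by 0.92 (0.58 to 1.27, adjusted p = 0.0018). Per lysate the difference from ATP5MC2 was 1.05 and 0.92, and that from ATP5MC3 0.89 and 0.95. Without the term for the lysate, the call against ATP5MC2 was lost (0.99, adjusted p = 0.074). ATP5MC2 and ATP5MC3 differed by -0.06 (-0.41 to 0.28, adjusted p = 0.94), which leaves differences of up to about that interval undetected.

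In AKAP1 null cells no pair differed detectably. The enrichments of the 3 genes were 0.51, 0.45 and 0.47, and ATP5MC1 exceeded ATP5MC2 by 0.06 (-0.28 to 0.39) and ATP5MC3 by 0.04 (-0.29 to 0.38). The loss of enrichment was larger for ATP5MC1 than for ATP5MC2 by 0.93 (interval of the difference -1.41 to -0.45, adjusted p = 0.0097) and than for ATP5MC3 by 0.88 (-1.35 to -0.40, adjusted p = 0.0097). Both calls were lost without wild-type lysate 1 or AKAP1 null lysate 2, and the second also without wild-type lysate 2 (adjusted p = 0.051 to 0.058), with values that stayed between -0.91 and -0.84. Without the term for the lysate both of these calls were lost too (-0.93 and -0.88, adjusted p = 0.16 and 0.084). In LARP4 null cells ATP5MC1 remained above ATP5MC2 by 0.60 (0.26 to 0.94, adjusted p = 0.011) and above ATP5MC3 by 0.53 (0.19 to 0.87, adjusted p = 0.016). Both calls were lost in a fit of the LARP4 null libraries alone (adjusted p = 0.10 and 0.14) and without the term for the lysate (adjusted p = 0.22 and 0.14), with values of 0.53 to 0.60.

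In ribosome profiling at the OMM, ATP5MC1 again had the highest value of the 3. ATP5MC1 exceeded ATP5MC3 by 0.49 (0.19 to 0.78, adjusted p = 0.0086), a call lost without OMM lysate 1 (0.57) and without OMM lysate 2 (0.40). It exceeded ATP5MC2 by 0.22 (-0.16 to 0.59, adjusted p = 0.32), but over all exons by 0.59 (adjusted p = 0.0014), where ATP5MC2 rests on more than 36 positions. In the cytosol ATP5MC1 lay below ATP5MC2 by 0.71 (interval of the difference -1.06 to -0.36, adjusted p = 0.0044) and ATP5MC2 above ATP5MC3 by 0.40 (0.09 to 0.72, adjusted p = 0.036). Both calls were lost without cytosol lysate 2, which leaves -0.40 and 0.36. The excess of ATP5MC2 over ATP5MC3 was also lost over all exons (0.22, adjusted p = 0.0995) and in a fit of the cytosol libraries alone (adjusted p = 0.062). The excess of OMM over cytosol was larger for ATP5MC1 than for ATP5MC2 by 0.93 (0.42 to 1.44) and than for ATP5MC3 by 0.79 (0.38 to 1.20), with adjusted p of 0.0049 and 0.0044. Both calls were lost without cytosol lysate 2 (0.61 and 0.53), the first also without OMM lysate 1 (0.76) and the second without OMM lysate 2 (0.71). At the ER no pair differed detectably, with intervals between -0.60 and 0.43. Without the term for the lysate, no c subunit pair was called in ribosome profiling.

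Over the 12 lysates with CHX, each centred on its median, the 3 genes were not each other's closest genes among 6430 tested in every comparison. By Euclidean distance of log2 enrichment, the 3 genes nearest to ATP5MC1 were COX5B (0.75) and COX7A2 (0.90), subunits of cytochrome c oxidase, and LAGE3 (0.98). ATP5MC3 came 90th and ATP5MC2 138th. Nearest to ATP5MC3 were DPCD (0.39), NDUFA8 (0.42), a subunit of complex I, and TIMM13 (0.47), a chaperone of the intermembrane space, with ATP5MC2 in place 87. Nearest to ATP5MC2 were ELOC (0.66), PSMA7 (0.72) and CENPM (0.74), with ATP5MC3 in place 18. The footprint noise of ATP5MC2, on 36 positions, enters its distances.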

How the data were processed

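Ribosome profiling (12 libraries) and RNA-seq (14 libraries) of HEK293T cells were used. For footprints, the authors removed rRNA and tRNA reads with Bowtie, aligned the rest to GRCh38 and deposited estimated counts and RPKM per gene region, made with plastid (27 to 36 nt alignments, 13 nt trimmed from either side, Ensembl 104 per the file headers). RNA-seq counts per gene were made by the authors with STAR and featureCounts, whose strand and multi-mapping settings are not given in the sources used here. The deposited FPKM are about 10-fold too large for their counts and were treated as a score of which only ratios were used. Of 58849 footprint entries, 1079 merge several genes. These held 5.86 to 8.56% of counts and stayed in library totals. The broken RNA-seq row of ANK2 was left out.

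Estimated counts were rounded. edgeR 4.0.16 (quasi-likelihood, two-sided, R 4.3.3) fitted the 12 libraries of an assay with CHX together, with a term per lysate, library totals as scale and Benjamini-Hochberg adjustment over all genes tested, called at 0.05. Genes needed 64 coding counts in each total input concerned, or a mean of 64 in RNA-seq. Total inputs alone were fitted with TMM and no block. Pulldown and total input were paired as parts of 1 lysate, and their deviations from group means correlated with r from 0.495 to 0.878. RNA-seq ratios per lysate had 0.5 counts added. Differences between c subunit genes add both SE in quadrature, with intervals from the t distribution of the fit. This treats the genes of a pair as independent although they share libraries, so these intervals and p-values are approximate. Named besides the 10 genes are the targeted genes, the genes merged with ATP5PO and ATP5MG, the other genes of the complex with the 3 largest OMM enrichments or the 3 largest changes on AKAP1 loss, the 3 nearest genes of each c subunit gene and, chosen after their values were seen, ATPAF1 and ATPAF2. Sequences, lengths and coordinates are from GENCODE 44 on GRCh38. Alternatives were TMM, DESeq2 1.42.0, a minimum of 10 counts, no replicate block, fits of own libraries, all exons, merged entries kept (chosen after seeing the data), 1 count added to RPKM ratios, FPKM ratios and leaving out each lysate. The fits were tested on simulated data, and figures drawn with matplotlib 3.10.9. The members, lists and tests were chosen with earlier results of these data known. Per the study's methods molecular identifiers were extracted from footprint reads, but whether duplicates were then removed is not given in the sources used here.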

Additional observations from a re-analysis of the deposited data

Results flagged for a closer look

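Results were listed here where the effect of the pulldown differed between groups by the test of the difference itself, in edgeR's quasi-likelihood fit. Between OMM and cytosol in ribosome profiling, the log2 difference in enrichment was 0.91 for ATP5F1B, 0.38 for ATP5F1C, 2.13 for ATP5MC1, 1.20 for ATP5MC2, 1.33 for ATP5MC3 and 2.23 for FMC1. Of the other genes of the complex 8 of 12 were called higher and 0 lower. Over all genes 16.6% were higher and 39.7% lower, and over listed mitochondrial genes 44.7% and 9.31%. For the 4 named above the difference was 1.56 for ATP5F1E, 1.95 for ATP5ME, 1.86 for ATP5MJ and 1.58 for ATP5MK.

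Between AKAP1 null and wild-type cells in RNA-seq, the difference was 1.33 for ATP5F1A and 1.14 for ATP5F1B. It was -1.43 for ATP5PO, -2.06 for ATP5MC1, -1.13 for ATP5MC2, -1.18 for ATP5MC3, -1.37 for ATP5MG and -1.46 for FMC1. Of the other genes of the complex 10 of 14 were called lower and 0 higher. Over all genes 7.96% were lower and 6.52% higher, and over listed mitochondrial genes 22.1% and 24.3%. For the same 4 the difference was -1.68 for ATP5F1E, -1.94 for ATP5ME, -1.50 for ATP5MJ and -1.55 for ATP5MK. Groups hold 2 lysates each, too few for a test of single outlying samples.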

How the results depend on the processing

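Over the 10 genes, 751 values under the alternatives kept their side of the threshold, 26 of them with a change of sign while not called, 42 lost a call, 25 gained one and 6 turned sign with a call before or after. These 6 were TMM values, 0.11 for ATP5F1C, 0.041 for ATP5MC1, 0.30 for ATP5MC2, 0.18 for ATP5MC3 and 0.45 for FMC1 at the ER, and 0.27 for ATP5PB at the OMM. Of the c subunit pairs, 189 values stayed (9 with a change of sign while not called), 27 lost a call, 3 gained one. At the ER, 2 genes were called higher under TMM instead of 0, and 0 lower under TMM, 2 without the replicate block and 8 with all exons and merged entries kept, instead of 5. These 8 include the merged entries of DONSON and ATP5PO and of KMT2A and ATP5MG. In that setting 6892 of all 9620 entries were called lower, and without the block 3174 of 7381 genes. At the OMM, 1 was called lower with merged entries kept, the entry of KMT2A and ATP5MG (-0.40, adjusted p = 0.019), which turned to 0.37 (adjusted p = 0.0027) and was called higher when all exons were counted as well. Pulldown and total input come from 1 lysate, and without the replicate block that pairs them 3 genes instead of 6 were called higher between OMM and cytosol and 5 instead of 10 in AKAP1 null cells, and 0 c subunit pairs instead of 5 differed in ribosome profiling and 1 instead of 6 in RNA-seq. Over all genes without the block, 199 of 6465 were called higher between OMM and cytosol, against 1070 with it. In AKAP1 null cells 632 of 13856 were called higher, against 1930 with it. DESeq2 called 6 genes lower in LARP4 null minus wild-type cells instead of 0. The causes of these shifts were not tested.

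Leaving out 1 lysate at a time leaves a lone lysate, which is assumed to vary like the others. Then 0 to 1 genes were called higher and 0 to 1 lower in the cytosol, 2 to 3 higher in AKAP1 null cells, 1 to 2 higher in AKAP1 null minus wild type and 0 to 9 lower in LARP4 null minus wild type. Among c subunit pairs 1 to 6 differed in ribosome profiling and 2 to 6 in RNA-seq.

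Over all genes, calls ranged from 4030 (TMM) to 8538 (minimum of 10 counts) around 6781 at the ER, from 1524 (no block) to 5523 (all exons) around 4234 at the OMM, from 29 (no block) to 935 (all exons) around 572 in the cytosol and from 254 (no block) to 4778 (all exons) around 3639 for their difference. In RNA-seq they ranged from 5328 (without wild-type lysate 2) to 11126 (own libraries) around 9127 in wild type, from 1314 (without AKAP1 null lysate 2) to 8062 (own libraries) around 5822 in AKAP1 null, from 3667 (no block) to 8755 (without LARP4 null lysate 2) around 7312 in LARP4 null, from 429 (no block) to 6478 (own libraries) around 2006 in AKAP1 null minus wild type, and from 0 to 5659 (without LARP4 null lysate 1) around 0 in LARP4 null minus wild type.

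Total inputs of the same number in null and wild-type cells share only a number, with correlations of 0.16 and 0.34 over 2 pairs each, and a replicate block called 0 of the 10 genes, as without it. Adding 1 count to RPKM ratios moved a value by at most 0.0995 and the deposited FPKM by at most 0.0012, with 0 changes of sign. Depth limits ATP5MC2 (237 counts in the shallowest OMM pulldown) and FMC1 most.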
